A study of Mus musculus with 2 samples.

Results

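The type 2 cytokine genes Il4, Il5, Il13 and Il10 and the transcription factor genes Gata3 and Irf4 were followed in a comparison of LAT3YF with wildtype mouse gamma delta T cells. They were taken as the probes that the platform annotation assigns to one of these genes alone. Each of the 6 genes had 1 such probe, and they are 6 of the 4331 genes measured by single-gene probes. One population came from mice carrying LAT3YF, an allele of the adaptor LAT named for tyrosine-to-phenylalanine changes. The other came from wildtype mice. Both were CD5+ gamma delta T cells of the spleen. Per the labels, they were purified with magnetic anti-CD5 beads and a cell sorter, and total RNA was hybridised to 2-colour arrays. The age, sex and number of the mice, and any pooling of animals, were not stated in those labels.

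The arrays were 2 in number. Both populations were hybridised together on each, with the dyes reversed from the first to the second (+ polarity and - polarity). Since no label names separate animals or extracts, the 2 arrays count as 1 replicate. No test of genotype was therefore made, and each SD is over the 2 arrays and covers technical error only. Values are log10 ratios of the 2 populations. The deposited sign of the - polarity array was turned, and the value of a gene is the mean of the 2 arrays. Base 10 is an assumption, because no source used here states the base of the logarithm. The sample titles name wildtype before LAT3YF for + polarity and LAT3YF before wildtype for - polarity. No label says whether this order is that of the ratio, or which dye or population is the numerator. A positive ratio thus marks the same population for every gene, but which population it is cannot be told. Every statement below on sides holds with LAT3YF and wildtype exchanged. The files give ratios and no intensities, so the abundance of these transcripts, the depth of the signal over background and the presence of the labelled cell type's markers cannot be read from them. In RNA from a whole population, fewer expressing cells and less RNA per cell cannot be told apart.

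Type 2 immunity is the arm of the response to helminths and allergens. Interleukin-4 drives T cells to the type 2 state and B cells to IgE, interleukin-13 acts on epithelium and macrophages, and interleukin-5 sustains eosinophils. Interleukin-10 restrains inflammation and is made by type 2 cells among others. GATA3 is the factor that opens and activates the shared Il4, Il13 and Il5 locus, while IRF4 works with BATF and AP-1 proteins on cytokine genes and with other partners in B cells. LAT links the T cell receptor to phospholipase C and Ras signalling. Mice with changes of its distal tyrosines are known for expansions of lymphocytes that make type 2 cytokines. That knowledge was not used to give a genotype to a sign.

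The Il13, Il5 and Il4 genes are neighbours on mouse chromosome 11, with Rad50 between Il13 and Il5. The results set Il13 apart from Il5 and Il4, but do not separate Il5 from Il4. The promoter windows of all 3 are shown, from 250 bases before to 50 bases after the start, from RefSeq (GRCm38.p6). The values themselves name no genome build. Capitals mark matches to a GATA word, that is GATA with A or T before it and A or G after it, on either strand. The windows lie at chr11:53634653-53634952 (minus strand) for Il13, chr11:53720544-53720843 (plus strand) for Il5 and chr11:53618616-53618915 (minus strand) for the outer of 2 listed starts of Il4.
Il13: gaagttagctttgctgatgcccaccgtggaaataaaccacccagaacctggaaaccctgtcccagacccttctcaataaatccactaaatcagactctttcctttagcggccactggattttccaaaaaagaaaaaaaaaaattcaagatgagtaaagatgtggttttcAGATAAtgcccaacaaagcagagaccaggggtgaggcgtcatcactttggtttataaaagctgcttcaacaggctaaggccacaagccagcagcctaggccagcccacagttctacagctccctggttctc
Il5: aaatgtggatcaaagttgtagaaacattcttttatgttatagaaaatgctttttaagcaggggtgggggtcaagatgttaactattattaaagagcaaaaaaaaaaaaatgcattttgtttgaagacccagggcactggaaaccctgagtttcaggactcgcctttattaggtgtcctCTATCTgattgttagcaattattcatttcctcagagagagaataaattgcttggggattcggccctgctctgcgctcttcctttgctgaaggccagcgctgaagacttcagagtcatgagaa
Il4: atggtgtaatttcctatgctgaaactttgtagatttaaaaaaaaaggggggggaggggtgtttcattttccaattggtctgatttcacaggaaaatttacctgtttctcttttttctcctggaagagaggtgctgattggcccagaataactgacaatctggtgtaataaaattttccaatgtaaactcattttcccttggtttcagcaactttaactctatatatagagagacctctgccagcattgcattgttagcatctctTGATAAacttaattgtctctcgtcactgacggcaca

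Each of the 3 windows held 1 GATA word. Counted from the start, it lay before it in Il13, at bases -81 to -76, and in Il5, at bases -72 to -67 and on the opposite strand. In the printed Il4 window it lay after the start, at bases 15 to 20. The window of the second listed Il4 start, not printed, also held 1 GATA word, before that start at bases -80 to -75, so its place relative to the start in Il4 depends on which start is taken. Of 32851 promoter windows of the same length in the RefSeq table, 29.8% held such a word, so a match is common. The NFAT core GGAAA, bound by the calcium-dependent NFAT factors, had 4 matches in the Il13 window, 2 in Il5 and 5 in Il4, and 61.3% of all windows hold at least 1. The Il4 window also held 1 match to the STAT6 spacing, TTC and GAA with 4 bases between them (6.95% of all windows), and 1 to the interferon-response spacing, GAAA repeated after 2 bases (3.44%), each overlapping an NFAT core match. The AP-1 word TGANTCA (7.81% of all windows) was in none of these 3 windows. The TATA box word TATAAA (13.6%) had 2 overlapping matches in Il13, 1 on each strand, and none in Il5 or Il4. Windows were also found for Gata3 and Irf4, 5 of the 6 genes in all (not Il10). Gata3 held 1 GATA word, at bases 37 to 42 after the start, and Irf4 held none. A match describes letters in a window and shows no binding.

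**Figure D1:**
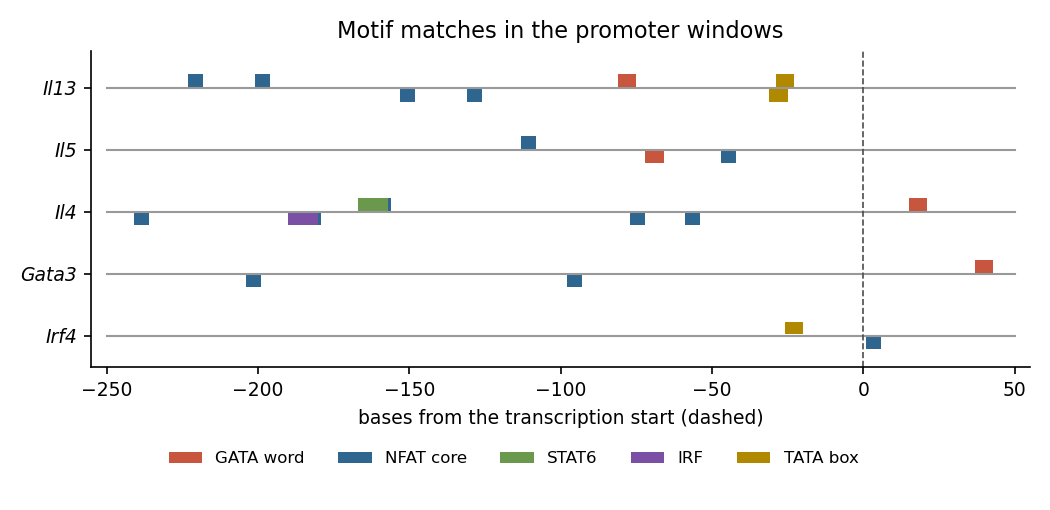
Motif matches in the promoter windows of 5 of the 6 genes (for Il4, the outer of 2 listed starts), plotted by distance in bases from the transcription start (dashed line). Bars above a line are matches on the strand of the gene and bars below it on the opposite strand. The GATA word lies before the start in Il13 (-81 to -76) and Il5 (-72 to -67) and after it in Gata3 (37 to 42) and at the outer start of Il4 (15 to 20). At the second Il4 start, not drawn, it lies before it (-80 to -75).

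All 6 genes had a positive ratio on both arrays. Il13, Gata3, Irf4 and Il10 differed at least 2-fold between the populations in the mean with the same sign on both arrays, the rule by which a gene was called. Of all 4331 genes, 8.75% were called. Those called on the positive side made up 3.72% of all genes and those on the negative side 5.03%. A positive sign on both arrays, without a limit of size, was found in 30.2% of all genes. The median ratio was 0.377 over the 6 genes and 0.0023 over all genes. For the 6 genes it was 0.438 with + polarity and 0.375 with - polarity.

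**Figure D2:**
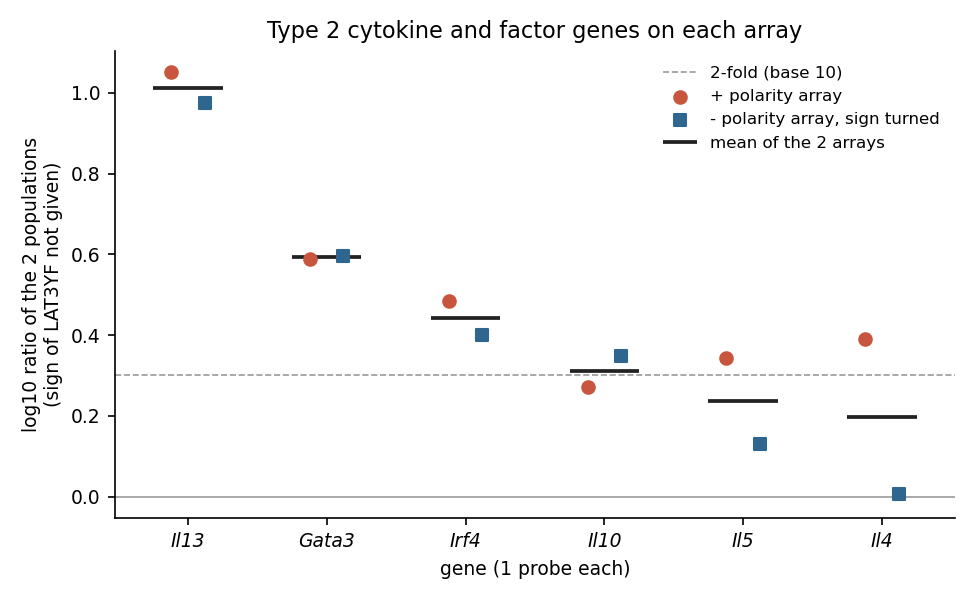
Log10 ratio of the 2 populations for each of the 6 genes, with 1 point for the + polarity array, 1 square for the - polarity array after its sign was turned, and a bar for their mean. Il13 lies near 1 on both arrays, Gata3 and Irf4 lie above the dashed 2-fold line on both, Il10 straddles it, and Il5 and Il4 pass it on the + polarity array alone.

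Among Il4, Il5, Il13 and Il10, Il13 had the largest ratio. It was 1.05 with + polarity and 0.975 with - polarity, or 11.3-fold and 9.44-fold. The mean of 1.01 ± 0.055 (SD, n = 2 arrays) is a 10.3-fold difference. By the size of the mean, whatever its sign, Il13 ranked 16 of the 4331 genes. Among signed values it ranked 9 from the positive end on each array and in the mean. Its values on the arrays did not overlap those of any of the other 5 genes.

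Il5 and Il4, the neighbours of Il13 in the genome, had smaller and less even ratios. The Il5 ratio was 0.344 with + polarity and 0.130 with - polarity, with a mean of 0.237 ± 0.15 (1.73-fold). For Il4 the ratio was 0.391 with + polarity (2.46-fold) and 0.0055 with - polarity (1.01-fold), with a mean of 0.198 ± 0.27 (1.58-fold). Neither gene was called, and the Il4 mean was smaller than its SD. The spread between the arrays was smaller than that of Il4 in 88.3% of all genes and smaller than that of Il5 in 76.0%. A difference in Il4 is thus not resolved by these arrays, which does not show that the populations were alike.

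The ratio of Il13 exceeded that of Il5 by 0.708 with + polarity and by 0.845 with - polarity. It exceeded that of Il4 by 0.662 and 0.969 on the same arrays. Rad50, a DNA repair gene whose body lies between Il13 and Il5 and carries control elements of the locus, was at 0.103 ± 0.018. Irf1, on the far side of Il5, was at 0.0703 ± 0.074. Neither was called. The difference at Il13 was therefore not matched in size by any of the 4 measured genes beside it in the order Il4, Il13, Rad50, Il5, Irf1. The cytokine genes Il3 and Csf2 were measured as well. The Il3 ratio was 0.542 with + polarity and -0.538 with - polarity, opposite signs of nearly equal size, so that its mean of 0.0018 describes neither array. Csf2 also changed sign, with 0.289 and -0.0959.

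Il10 lay close to the 2-fold line. Its ratio was 0.272 with + polarity (1.87-fold) and 0.349 with - polarity (2.23-fold). The mean of 0.311 ± 0.055 (2.04-fold) passed the threshold of 0.301 by less than the SD. Among the measured relatives and receptors of interleukin-10, the receptor chains Il10ra (0.109 ± 0.016) and Il10rb (-0.229 ± 0.045) were not called. The epithelial-acting cytokine Il22 of the same family was called on the opposite side at -0.940 ± 0.11 (8.70-fold).

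Gata3 had the most even ratio of the 6. It was 0.589 with + polarity and 0.597 with - polarity, a mean of 0.593 ± 0.0057 (3.92-fold), and 6.44% of all genes had a smaller spread between the arrays. It ranked 97 by size and 32 from the positive end in the mean. The 4 other measured members of the GATA family were not called and lay between -0.0526 (Gata4, of heart and gut) and 0.0685 (Gata1, of red cell precursors). Probes of Gata4, Gata5 and Gata6 had opposite signs on the arrays.

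Irf4 had ratios of 0.485 with + polarity (3.05-fold) and 0.402 with - polarity (2.52-fold). The mean was 0.443 ± 0.059 (2.77-fold), rank 181 by size and 63 from the positive end. Of 7 other measured interferon regulatory factor genes, Irf8 was called, on the opposite side, at -0.457 ± 0.0044 (2.87-fold). IRF8 is the relative of IRF4 that directs myeloid and dendritic cell development. The other 6 lay between -0.0532 (Irf9) and 0.0703 (Irf1) and were not called. Irf4 and Irf8 thus had ratios of similar size and opposite sign.

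In descending order of the mean the 6 genes ran Il13, Gata3, Irf4, Il10, Il5, Il4. The array values of Il13, Gata3, Irf4 and Il10 did not overlap between neighbours in this order. The nearest such pair was Irf4 and Il10, which differed by 0.213 with + polarity and by 0.0524 with - polarity. Il10, Il5 and Il4 did overlap. On the + polarity array alone Il4 was the highest of these 3, and on the - polarity array alone it was the lowest, so their order is not settled.

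**Figure D3:**
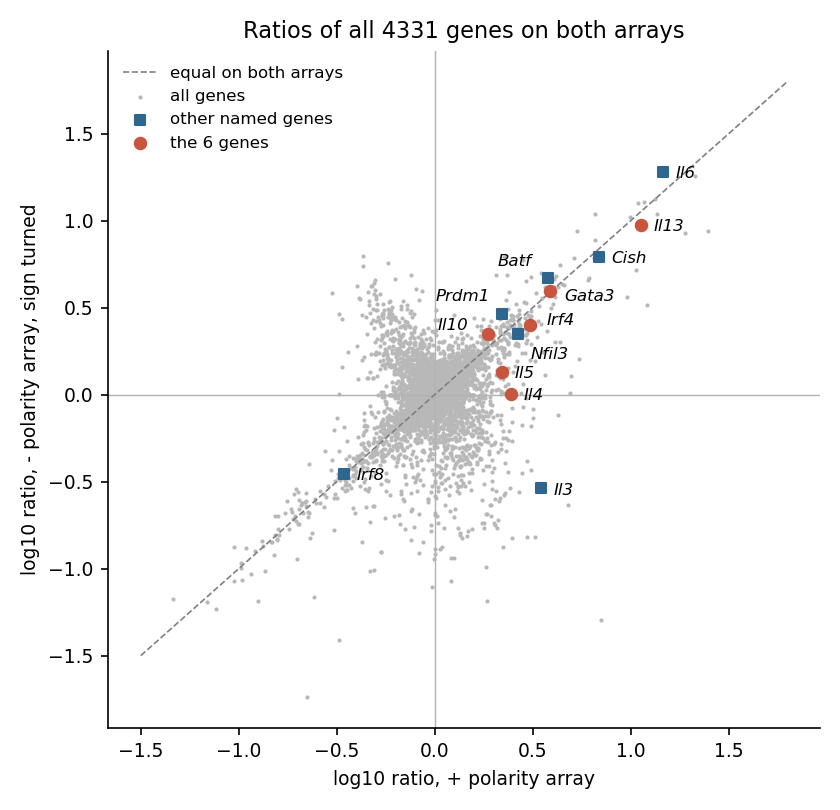
Log10 ratio on the + polarity array (horizontal) against the - polarity array after its sign was turned (vertical) for each of the 4331 genes, with the 6 genes as circles and other named genes as squares. Il13, Gata3, Irf4 and Il10 lie close to the line of equal values, Il5 and Il4 lie to its right, and Il3 (0.542 and -0.538) lies in the quadrant of opposite signs.

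Other genes listed for the type 2 pathway, some of which have wider roles (such as Il6 and Zbtb7b), gave mixed values. Of 62 measured genes that were listed beside the 6, 9 were called positive, 2 negative and 51 were not called, with a median of 0.0390. Genes called positive made up 3.72% of all genes and those called negative 5.03%. The list held 88 genes, of which 26 had no single-gene probe. Within it, 36 genes had a mean above 0 and 26 below 0, and 21 had opposite signs on the arrays. Of the 62, 13 passed 2-fold in either direction when the + polarity array was used by itself, and 19 did with - polarity. Of all 4331 genes, 452 passed it with + polarity alone and 742 with - polarity alone.

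Of 9 other cytokine and chemokine genes, 2 were called positive and none negative, with a median of 0.0963. Il6, whose product is an inflammatory cytokine of many sources, was at 1.22 ± 0.083 (16.7-fold), and Ccl1, a chemokine of activated T cells, was at 0.801 ± 0.020 (6.32-fold). Il21, which helps B cells, had 0.0171 with + polarity and 0.430 with - polarity and was not called. Il2, the T cell growth factor, was at 0.107 ± 0.0021, and Il9, a further type 2 cytokine, was at -0.0895 ± 0.016.

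Receptors and signalling genes gave 3 positive calls and no negative call among 28. These were Cysltr1, a receptor for cysteinyl leukotrienes, at 1.17 ± 0.32 (14.8-fold), and 2 inhibitors that cytokine receptors induce through STAT proteins. Cish was at 0.814 ± 0.032 (6.52-fold) and Socs1 at 0.348 ± 0.00064 (2.23-fold). Stat6, the signal transducer of interleukin-4 and interleukin-13, was at -0.0430 ± 0.0025, and Jak3, the kinase of the shared gamma chain, was at 0.260 ± 0.0082. The interleukin-9 receptor gene Il9r had the lowest value of this list, -0.284 ± 0.17. The list's median was -0.00052, with 14 means above 0 and 14 below.

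Of 25 other transcription factor genes, 4 were called positive and 2 negative, with a median of 0.0560. Batf, the AP-1 family partner of IRF4, was at 0.624 ± 0.064 (4.20-fold), close to Gata3 in size. Prdm1, which encodes the effector and plasma cell repressor Blimp-1, was at 0.404 ± 0.088 (2.54-fold), and Nfil3, a leucine zipper factor of several lymphocyte lineages, was at 0.387 ± 0.056 (2.44-fold). Zbtb7b, a factor of CD4 lineage choice, was at 0.311 ± 0.075 (2.05-fold). The genes called negative were the ligand-activated factor Ahr at -0.613 ± 0.013 (4.10-fold) and the AP-1 gene Jun at -0.341 ± 0.057 (2.19-fold). Runx1, a runt family factor of T cell development, was the largest gene not called at 0.294 ± 0.075. Junb, an AP-1 protein that acts on Il4, was at -0.289 ± 0.14 and was not called. Maf, an activator of Il4 and Il10, was at 0.115 ± 0.017 and was not called either.

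Genes of the type 1 and type 17 programmes, read as 1 list, had ratios mainly below 0. Of 18 measured, none was called positive and 4 were called negative, with a median of -0.0852 and 14 means below 0. Among all genes, 5.03% were called negative. Of the 4 negative calls, only Ifngr1 does not belong to the type 17 programme. After Il22, the negative calls were the chemokine receptor Ccr6 at -0.480 ± 0.077 (3.02-fold), the cytokine gene Il17a at -0.479 ± 0.32 (3.01-fold) and the interferon gamma receptor chain Ifngr1 at -0.380 ± 0.020 (2.40-fold). The Il17a ratio was -0.252 with + polarity, short of 2-fold, and -0.706 with - polarity. Hlx, a homeobox factor of type 1 cells, was the largest gene not called at -0.290 ± 0.26. Il12rb1 had the highest value of the list, 0.220 ± 0.034, and was not called. Ifng, the type 1 cytokine gene, was at -0.0592 ± 0.047. Tbx21, whose product T-bet opposes GATA3, had opposite signs on the arrays (0.184 and -0.351).

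**Figure D4:**
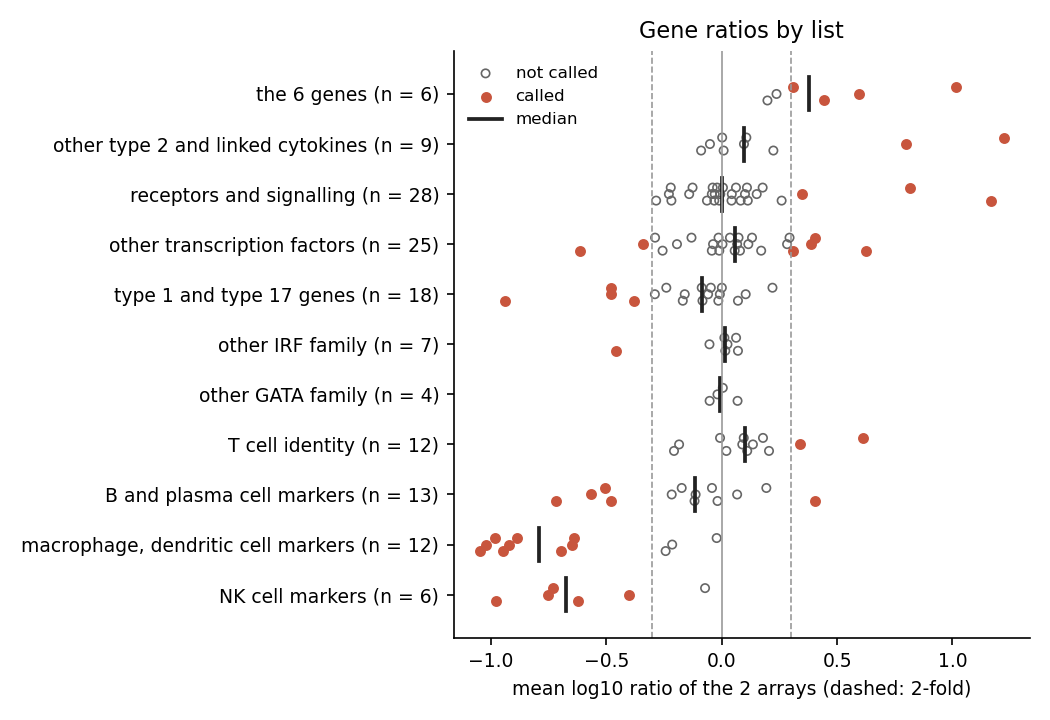
Mean log10 ratio of the 2 arrays for each gene, by list, with filled points for called genes, open points for genes not called and a bar for the median of each list. The 6 genes lie right of 0 (median 0.377). The 62 other type 2 pathway genes lie on both sides of 0 (median 0.0390). Il6, Ccl1, Cysltr1, Cish and Batf are among the 9 called positive, Ahr and Jun are the 2 called negative, and 26 means are below 0. Type 1 and type 17 genes (median -0.0852) and macrophage, dendritic cell and NK cell markers lie mainly left of 0.

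Markers of other cells that make the same cytokines or factors were read beside these values. Of 12 listed basophil and mast cell markers, 8 had no single-gene probe. None of the 4 measured was called, and they lay between -0.298 (Kit) and 0.200 (Fcer1a). Mcpt4 had opposite signs on the arrays (-0.270 and 0.328). Of 9 listed eosinophil markers, 7 had no single-gene probe, and the 2 measured were at -0.218 (Il5ra) and 0.152 (Ccr3). Both lists were thus mostly unmeasured. Of 6 markers of type 2 innate lymphoid cells, Klrg1 was called positive at 1.09 ± 0.025 (12.2-fold). It is also carried by effector T cells. The other 5 lay between -0.237 and 0.131.

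B and plasma cell markers, whose cells express Irf4, gave 4 negative calls and 1 positive call among 13. The positive one was Prdm1, and the largest negative one was Ighm, the immunoglobulin mu chain, at -0.719 ± 0.031. Of 12 macrophage and dendritic cell markers, 9 were called negative and none positive, with a range from -1.05 to -0.0221. NK cell markers gave 5 negative calls among 6, from -0.979 to -0.0723. These lists therefore had medians on the side opposite to Il13, Gata3, Irf4 and Il10. The medians were -0.118 for the pooled B and plasma cell list, -0.792 for macrophages and dendritic cells and -0.677 for NK cells. In the pooled list the negative calls were Ighm, Cd72, Blnk and Cd79b. Its plasma cell genes did not share that side as a set. Prdm1 was called positive, and Xbp1 (0.0667), Jchain (-0.0423) and Tnfrsf17 (-0.113) were not called. Each of the 5 NK calls was a Klr receptor gene, and the remaining NK marker, Ncr1, was not called at -0.0723 ± 0.031. Klrg1, read above with the innate lymphoid markers, is a Klr gene too and lay on the positive side. Among 4 markers of alpha beta T cells, Cd8a and Cd8b1 were called negative, Zbtb7b was called positive, and Cd4 was at 0.0177 ± 0.047. Of 12 T cell identity genes, Cd5, which marked the cells for isolation, was at 0.614 ± 0.0077 and the costimulatory receptor gene Icos at 0.340 ± 0.017, and the other 10 were not called. The part of the cell makeup in the ratios of the 6 genes was not tested.

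The genes most similar to each of the 6 over the 2 arrays were those at the smallest Euclidean distance of the turned array values. With 2 arrays this is a likeness of 2 numbers and describes no shared regulation. For Il13 the nearest were the T cell receptor segment Trbv1 (distance 0.0725), the protease gene Bace2 (0.105) and the adhesion gene Cntn1 (0.126). Gata3 was nearest to Cd5 (0.0298), the mitotic kinase gene Nek2 (0.0318) and the keratin gene Krt17 (0.0422). Irf4 was nearest to Sox13 (0.0392), a factor of gamma delta T cells, to the intermediate filament gene Vim (0.0393) and to the kinase gene Camk2b (0.0455). Il10 was nearest to the chemokine receptor gene Ccr2 (0.0073), the kinase gene Mapkapk3 (0.0081) and the glycolytic gene Pkm (0.0201). The nearest genes of Il5 were Krt18 (0.0200), Adipoq (0.0267) and D130043K22Rik (0.0279). Those of Il4 were Bco1 (0.0209), Pole3 (0.0411) and Trbv13-2 (0.0511), which shared its gap between the arrays.

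The + polarity array alone put 5 of the 6 genes past 2-fold on the positive side (5.26% of all genes), with Il10 the exception. The - polarity array alone put 4 past it (7.07% of all genes), with Il5 and Il4 the exceptions. Where each array had to pass 2-fold on its own, a rule chosen after the data were seen, Il13, Gata3 and Irf4 remained, and 2.68% of all genes passed on the positive side. At 1.5-fold in the mean all 6 passed (8.43% of all genes on the positive side), Il4 with hardly any difference on the - polarity array. At 3-fold, Il13 and Gata3 remained (1.11% of all genes on the positive side). If the values were log2, the Il13 ratio would be 2.02-fold and Gata3 1.51-fold, and Il13 alone would be called.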

How the data were processed

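CD5+ gamma delta T cells of LAT3YF and wildtype spleens were compared on 2 dye-reversed arrays. Per probe and array, the authors deposited a log ratio of both channels, read here as log10. The sources used here do not state its base, numerator, image analysis, background correction or normalization. The deposited log10 values ran from -1.43 to 1.74, with medians of -0.0028 (+ polarity) and 0.0010 (- polarity). The columns correlated at -0.301 across probes, which are not independent replicates. Before the sign is turned, dye-reversed arrays that agree correlate negatively, so the agreement over all probes was weak. The - polarity values were multiplied by -1 and the arrays averaged. Of 8014 probes, 4654 had 1 gene in the platform annotation, 73 several and 3287 none listed. Probes of a gene were averaged, giving 4331 genes. No value was missing and no filter on low signal was possible.

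A gene was called at 2-fold or more in the mean (0.301) with the same turned sign on both arrays. The rule goes by size and tests nothing. The number of arrays limits the precision. The 6 genes, the lists and the settings were chosen with earlier results of these data known. Named genes were the 6, called genes of the lists (for markers, at most 4 per list), the largest uncalled gene of each list other than the markers, and the 3 nearest genes of each. Further uncalled genes named, such as Stat6, Junb, Maf and Ifng, belong to the lists and were picked for their roles with their values known. Promoter windows came from RefSeq (GRCm38.p6), and motifs were searched on both strands. Python 3.11.15, numpy 2.4.6 and pandas 2.3.3 were used. Alternatives were each array alone, centring, scaling, other log bases and other thresholds.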

Additional observations from a re-analysis of the deposited data

How the results depend on the processing

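The ratios of the 6 genes kept their sign under all alternatives run. This was given beforehand for single arrays and other log bases, since all 6 were positive on both arrays. Each array alone gave Il4 0.0055 to 0.391, Il5 0.130 to 0.344, Il13 0.975 to 1.05, Il10 0.272 to 0.349, Gata3 0.589 to 0.597 and Irf4 0.402 to 0.485. Centring moved none by more than its SD. Scaling moved Gata3 to 0.602, more than its small SD, and no other. Read as log2, on the log10 scale Il5 became 0.0714, Il13 0.305, Il10 0.0935, Gata3 0.179 and Irf4 0.133. Read as natural logs, Il13 became 0.440, Il10 0.135, Gata3 0.258 and Irf4 0.192. Of the 6 genes, 4 were called, 4 to 5 on single arrays, 1 as log2, 1 as natural logs and 2 at 3-fold. Of all genes, 379 were called, 452 to 742 on single arrays, 17 as log2, 62 as natural logs, 774 at 1.5-fold and 144 at 3-fold. Of the 62 other type 2 pathway genes, 11 were called, 13 to 19 on single arrays, 2 as log2, 4 as natural logs, 22 at 1.5-fold and 6 at 3-fold. These counts follow from the scale or threshold itself, except on single arrays. There the value of 1 array stood in for the mean, and the same-sign rule had no second array to compare. The part of this looser rule in the single-array counts was not tested. The alternative of single probes in place of a gene's mean gave no value, since each of the 6 genes had 1 probe. No paired analysis was possible because the 2 arrays form a single pair that counts as 1 replicate. No signal over background was used, so weak and strong spots count alike.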
